A study of Mus musculus with 7 samples.

Results

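AP-1 is a transcription factor built from pairs of leucine zipper proteins, and the genes described here encode its core subunits, the 4 members of the Fos family (Fos, Fosb, Fosl1 and Fosl2) and the 3 members of the Jun family (Jun, Junb and Jund). They were picked out by gene symbol, with no threshold on measured values, although the set itself was proposed with earlier results of these data known, and are 7 of the 49382 genes in the table. Their levels come from RNA-seq of mouse embryonic fibroblasts (MEFs), primary cells grown from minced wild-type embryos after the head and the red tissue were taken away, and, by the study's methods, sorted for purity. There were 7 libraries, 1 from control cells, for which the labels give no time, and 1 from each of 6 stress conditions. Oxidative stress was 3 h in 10 μM sodium arsenite (NaAsO2), which reacts with protein thiols, and osmotic stress was 3 h with 100 mM NaCl added to the medium. The other 4 conditions lasted 10 h. They were ER stress from 1 μM thapsigargin, a blocker of the ER calcium pump, depletion of glucose, depletion of glutamine, and hypoxia at 0.1% oxygen. The comparison asks how each condition differed from control cells in AP-1 transcripts. No condition has a replicate, so every difference below is between single libraries, with no error and no test, and the 3 h and 10 h times cannot be told apart from the treatments.

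Fos proteins need a Jun partner to bind DNA stably, whereas Jun proteins can also pair among themselves, and the pairs bind the sequence TGACTCA and close relatives of it. Fos, Fosb, Jun and Junb are known as immediate early genes, which growth factors and stress switch on within minutes through MAP kinases and whose transcripts are short-lived. Fosl1 (Fra-1) and Fosl2 (Fra-2) lack the strong activation domain of Fos and usually follow later, and Jund is known for steady expression in many tissues. In fibroblasts AP-1 is best known for its part in proliferation and in the expression of matrix proteases.

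The values are TPM, the share of a library that a gene takes per unit of transcript length, so levels can be compared between genes. TPM keeps no read count, the depth of the libraries is therefore unknown. The number of genes detected above 0 TPM ran from 19819 to 21154. Mitochondrially encoded genes took 5.09% to 9.25% of TPM, with the highest share in oxidative stress and the lowest in ER stress. Changes were taken as log2(TPM + 1) of a condition minus control, a scale that understates the change of low genes, and changes past 2-fold on it were counted. Genes averaging 2 TPM or more were kept, which left 12909 of them, all 7 members included. The 7 fibroblast markers were all kept, and their summed level ranged from 6121 TPM in ER stress to 12711 TPM, with Col3a1 (log2 change -2.07) and Pdgfrb (-1.15) lower by more than 2-fold in ER stress. The macrophage markers summed to between 6.53 and 14.6 TPM, with Ptprc, Adgre1 and Fcgr1 under 1 TPM in every library, Cd68 at 5.26 to 9.77 TPM and Csf1r at 0.744 to 2.25 TPM, highest in osmotic stress. Itgam, summed over its 2 rows, was under 0.1 TPM in every library but osmotic stress, where it was at 2.93 TPM, and the part of such cells in the osmotic stress values below was not tested. Epithelial markers summed to between 3.88 and 11.8 TPM and endothelial markers to between 2.94 and 7.31 TPM, and Epcam, Cdh1, Krt5 and Cdh5 were under 1 TPM throughout. Krt18 was at 3.57 to 10.6 TPM and Krt8 reached 1.00 TPM, both highest in ER stress. Kdr was at 1.92 to 4.23 TPM and Tek at 0.275 to 1.94 TPM. Pecam1 was at 1.02 TPM in osmotic stress and at most 0.223 TPM elsewhere. Muscle markers reached 38.4 to 153 TPM, nearly all of it Acta1, with Myod1, Myog and Myh3 under 1 TPM. Tnnt3 was at 1.23 TPM in control and between 0.577 and 4.61 TPM in the conditions, highest in oxidative stress.

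The promoters of the 4 immediate early members are shown because these genes share a way of being switched on, and because Fosb and Junb, described below, had similar profiles over the libraries. Each sequence is the 150 bases before the start site, written 5′ to 3′ on the gene's own strand, from RefSeq on GRCm38.p6. Capitals mark the motifs found in a search for TGACTCA (the AP-1 site), TGACGTCA (the CREB site), TGACATCA (a site of the Jun promoter), TGACG (the core of the CREB site), TATAAA (the TATA box) and the CArG box (the binding sequence of SRF) on both strands of the 250 bases before each start. TGACG is also part of TGACGTCA. Sites further upstream were not searched, so a promoter without a marked motif, the CArG box included, can still hold it there.
Fos, chr12:85473740-85473889, plus strand: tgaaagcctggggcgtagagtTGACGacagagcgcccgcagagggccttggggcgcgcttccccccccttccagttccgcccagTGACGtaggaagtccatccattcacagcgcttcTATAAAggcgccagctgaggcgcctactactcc
Fosb, chr7:19310046-19310195, minus strand: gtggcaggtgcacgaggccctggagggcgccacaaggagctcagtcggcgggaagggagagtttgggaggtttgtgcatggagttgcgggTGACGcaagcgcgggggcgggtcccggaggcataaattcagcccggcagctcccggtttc
Jun, chr4:95052223-95052372, minus strand: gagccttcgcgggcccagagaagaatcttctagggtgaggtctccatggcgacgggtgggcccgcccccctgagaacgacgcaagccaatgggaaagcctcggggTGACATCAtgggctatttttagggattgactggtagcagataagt
Junb, chr8:84978749-84978898, minus strand: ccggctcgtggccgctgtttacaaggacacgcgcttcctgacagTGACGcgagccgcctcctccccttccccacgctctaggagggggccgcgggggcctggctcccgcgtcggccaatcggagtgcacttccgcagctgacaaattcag

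A promoter window was found for 6 of the 7 members, all but Fosl1. The Fos window held TGACG, the core of the site bound by CREB and ATF proteins, at -129 to -125 and at -66 to -62 from the start, and a TATA box at -33 to -28. The Fosb window held TGACG at -60 to -56, and the Junb window held it at -106 to -102. The Jun window held TGACATCA, a site known to bind Jun with ATF2, at -45 to -38. None of the searched motifs was found in the windows of Fosl2 and Jund, but these do not lie at the GENCODE starts given below, the RefSeq start being 671 bases inside the gene for Fosl2 and 1210 bases before it for Jund. For the 4 genes shown above, both starts were at most 30 bases apart. Of 32544 promoter windows of that length, 17.8% held TGACG, 12.3% TATAAA, 4.46% TGACTCA, 2.84% TGACATCA, 1.55% TGACGTCA and 1.48% a CArG box.

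Short-lived transcripts often carry ATTTA, the core of the AU-rich element, in the 3′UTR. The counts below are over the longest GENCODE M21 coding transcript of each gene, and 64.7% of 21037 genes with a 3′UTR held at least 1 copy. Percentiles are among the 17834 genes with at least 200 bases of 3′UTR. Fos held 4 copies in 815 bases (4.91 per kb, percentile 93.2). Junb held 2 in 485 bases (4.12 per kb, percentile 88.6) and Jun held 4 in 1233 bases (3.24 per kb, percentile 80.3). The median over 17834 genes with at least 200 bases of 3′UTR was 1.502 per kb. The other members were nearer to it, at 1.88 per kb for Jund, 1.72 for Fosl2, 1.57 for Fosl1 and 0.466 for Fosb. A stretch with some of these copies, capitals marking ATTTA, is shown for each of the 3 members with the highest density. It holds 2 of the 4 copies of Fos, 2 of the 4 of Jun and 1 of the 2 of Junb, with its place counted from the base after the stop codon.
Fos, bases 642 to 671: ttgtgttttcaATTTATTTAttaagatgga
Jun, bases 1031 to 1060: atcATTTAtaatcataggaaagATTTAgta
Junb, bases 239 to 268: aatatatttgtgtATTTAacagggagggga

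Fosb, Fosl1 and Junb were the members that rose by more than 2-fold, all of them in osmotic stress and in glutamine depletion. Oxidative stress raised Fosb and Fosl1. ER stress raised Fosl1, while all other members were below their control levels, Jund only slightly (log2 change -0.07). Over all kept genes, 3.08% rose past 2-fold in osmotic stress, 3.21% in glutamine depletion, 3.94% in oxidative stress and 8.6% in ER stress. Fosb passed the filter on low values through the libraries where it was high, and with a pseudocount of 5 TPM its rises did not pass 2-fold. Glucose depletion and hypoxia left every member within 2-fold of control, where 1.83% to 3.57% of all kept genes passed it in each direction. On the log2(TPM + 1) scale no member fell by more than 2-fold, although the plain TPM of Fos and Fosb in ER stress did. Fosl1 shares exon sequence with a gene on the other strand, and the sum of both did not pass 2-fold in any condition. In bulk RNA, a change in the number of cells that express a gene and a change in RNA per cell cannot be told apart.

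**Figure D1:**
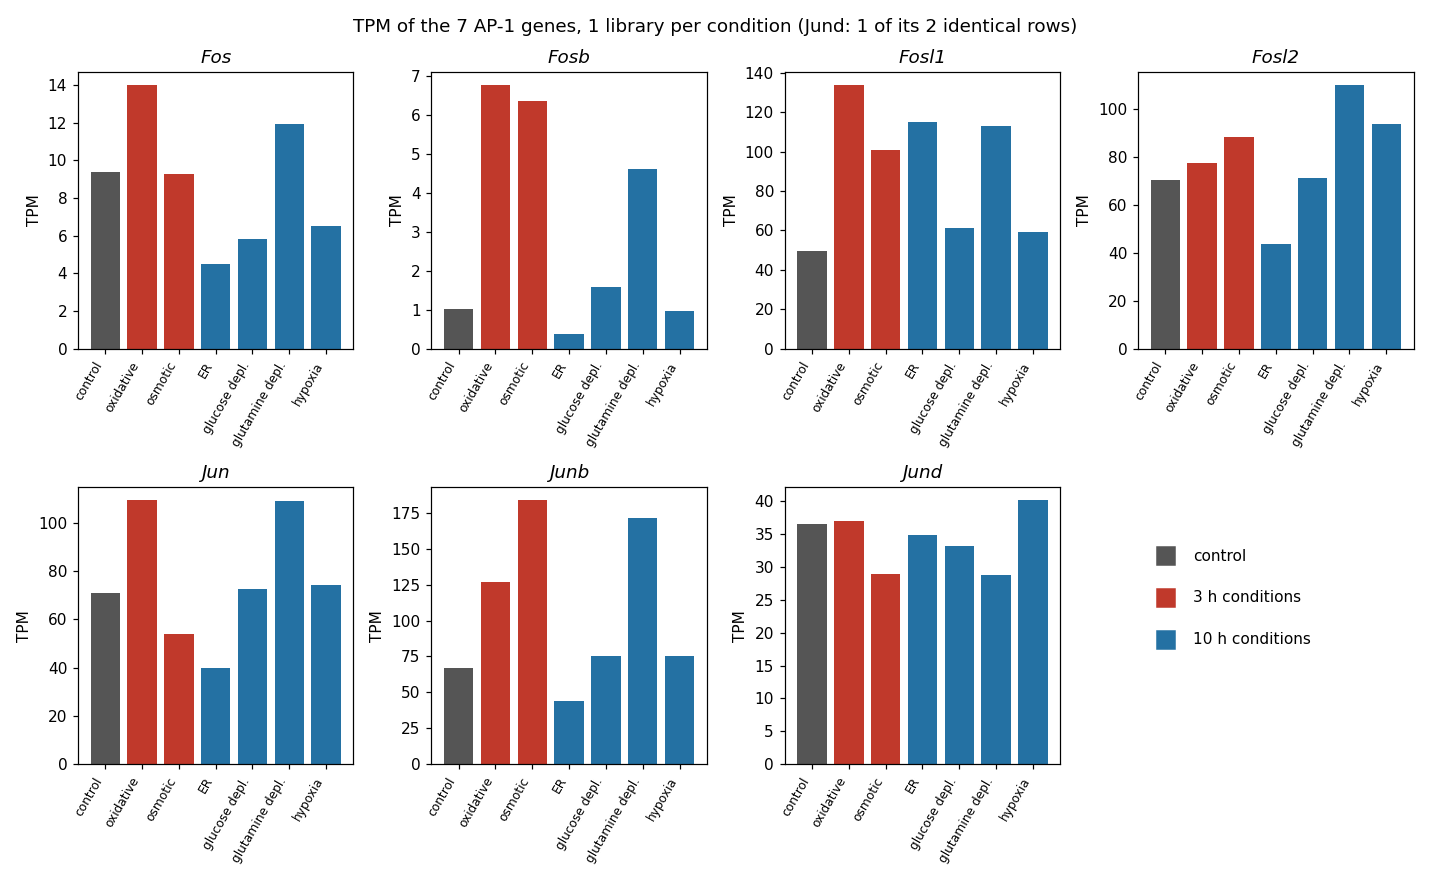
TPM of each AP-1 gene (vertical axis, from 0, a scale of its own in each panel) in the 7 libraries (horizontal axis), 1 bar per library, coloured grey for control, red for 3 h and blue for 10 h conditions. Fosb, Fosl1 and Junb were highest in oxidative or osmotic stress, ER stress had the lowest bar for Fos, Fosb, Fosl2, Jun and Junb, and Jund varied least.

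Within the Fos family, Fos (ENSMUSG00000021250, chromosome 12, 85473890 to 85477273, plus strand), the founding immediate early gene, was low throughout. Its level was 9.36 TPM in control, 14.0 in oxidative stress, 9.27 in osmotic stress, 4.51 in ER stress, 11.9 in glutamine depletion, 5.82 in glucose depletion and 6.53 in hypoxia. Oxidative stress and glutamine depletion were thus the libraries above control, and ER stress the lowest. The log2 changes were 0.53 in oxidative stress and 0.32 in glutamine depletion, -0.01 in osmotic stress, -0.46 in hypoxia, -0.60 in glucose depletion and -0.91 in ER stress, so none passed 2-fold on this scale. The plain ratio of TPM in ER stress was 0.482. The change in osmotic stress had no firm sign, since it was 0.11 once the changes were centred on the median of the kept genes.

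Fosb (ENSMUSG00000003545, chromosome 7, 19302696 to 19310051, minus strand), which encodes the subunit closest in activity to Fos, had the lowest level and the widest spread of the 7 genes. It stood at 1.03 TPM in control, 6.77 in oxidative stress, 6.37 in osmotic stress, 0.383 in ER stress, 4.63 in glutamine depletion, 1.59 in glucose depletion and 0.971 in hypoxia. Its mean of 3.11 TPM passed the filter on low values through the 3 libraries in which it was high. The ratio of TPM to control was 6.59 in oxidative stress, 6.20 in osmotic stress and 4.50 in glutamine depletion, with log2 changes of 1.94, 1.86 and 1.47. These were the 249th, 192nd and 234th largest rises of the 12909 kept genes in their conditions. The changes in glucose depletion (0.35), hypoxia (-0.04) and ER stress (-0.55) were within 2-fold on this scale, though the plain ratio in ER stress was 0.372. At levels this low the size of the change rests on the pseudocount, and with 5 TPM in place of 1 TPM the 3 rises were 0.97, 0.92 and 0.68, none past 2-fold.

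Fosl1 (ENSMUSG00000024912, chromosome 19, 5447547 to 5455946, plus strand) was the member with its lowest level in control, at 49.4 TPM. It stood at 134 TPM in oxidative stress, 101 in osmotic stress, 115 in ER stress, 113 in glutamine depletion, 61.1 in glucose depletion and 59.3 in hypoxia. The libraries fell in a high set of 4, from 101 to 134 TPM, and a low set of 3, from 49.4 to 61.1 TPM. The log2 changes were 1.42 in oxidative stress, 1.20 in ER stress, 1.18 in glutamine depletion and 1.02 in osmotic stress, against 0.30 in glucose depletion and 0.26 in hypoxia. The last exon of Fosl1 is overlapped over 1055 bases, on the opposite strand, by Ccdc85b, a gene for a coiled-coil protein. The library kit keeps the strand of a read, but Kallisto at its default settings does not use it, so reads of the shared stretch cannot be assigned by strand. Ccdc85b went the other way, with 60.5 TPM in control, 33.3 in oxidative stress, 48.3 in osmotic stress, 13.4 in ER stress, 33.8 in glutamine depletion, 56.7 in glucose depletion and 49.2 in hypoxia. The sum of both genes was 109.9 TPM in control and 167, 149, 128, 147, 118 and 108 TPM in the 6 conditions in the same order, with log2 changes between -0.02 in hypoxia and 0.60 in oxidative stress. The sum thus passed 2-fold in no condition, and how the shared reads were divided was not tested.

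Fosl2 (ENSMUSG00000029135, chromosome 5, 32135801 to 32157842, plus strand), the other Fos family member without a strong activation domain, stayed within 2-fold of control everywhere. Its level was 70.5 TPM in control, 77.6 in oxidative stress, 88.5 in osmotic stress, 43.6 in ER stress, 110.05 in glutamine depletion, 71.3 in glucose depletion and 93.8 in hypoxia. Glutamine depletion (log2 change 0.64) and hypoxia (0.41) were the highest libraries and ER stress (-0.68) the lowest. Fosl2 outnumbered Fosl1 in control, glucose depletion and hypoxia, where the ratio of Fosl1 to Fosl2 was 0.700, 0.857 and 0.632. Fosl1 led in the other libraries, with a ratio of 1.03 in glutamine depletion, 1.14 in osmotic stress, 1.72 in oxidative stress and 2.63 in ER stress.

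Within the Jun family, Jun (ENSMUSG00000052684, chromosome 4, 95049034 to 95052222, minus strand), which activates its own promoter through the TGACATCA site shown above, did not pass 2-fold either. It stood at 71.0 TPM in control, 109 in oxidative stress, 54.1 in osmotic stress, 39.9 in ER stress, 109 in glutamine depletion, 72.7 in glucose depletion and 74.3 in hypoxia. Oxidative stress and glutamine depletion were the highest libraries, with log2 changes of 0.62 and 0.61, while osmotic stress (-0.39) and ER stress (-0.82) were under control. Jun shares 232 bases of exon with the antisense gene Junos, which was at 3.36 to 7.87 TPM.

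Junb (ENSMUSG00000052837, chromosome 8, 84974484 to 84978718, minus strand), a weaker activator than Jun that can hold it in check, had the largest change of the Jun family. Its level was 67.1 TPM in control, 127 in oxidative stress, 184 in osmotic stress, 43.7 in ER stress, 171 in glutamine depletion, 75.4 in glucose depletion and 75.6 in hypoxia. The ratio to control was 2.74 in osmotic stress and 2.55 in glutamine depletion, with log2 changes of 1.44 and 1.34, the 234th and 267th largest rises of the kept genes. In oxidative stress the ratio was 1.89 and the change 0.91, short of 2-fold, but it was 1.06 when the changes were centred on the median of the kept genes, which lay at -0.16 there. ER stress was the lowest library (-0.61). In osmotic stress Junb and Jun moved apart, and the ratio of their levels was 3.40 against 0.944 in control and 1.02 to 1.57 in the other 5 conditions. The 173 bases of exon that Junb shares with Prdx2 are on the opposite strand, and Prdx2 was at 177 to 363 TPM.

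Jund (ENSMUSG00000071076, chromosome 8, 70698949 to 70700616, plus strand) varied least. The table lists it under 2 identifiers whose values are the same in every library, and it was counted once. Each row held 36.6 TPM in control, 37.0 in oxidative stress, 28.9 in osmotic stress, 34.9 in ER stress, 28.8 in glutamine depletion, 33.1 in glucose depletion and 40.1 in hypoxia. The log2 changes ran from -0.34 in glutamine depletion to 0.13 in hypoxia. The highest level was 1.40 times the lowest, against 2.52 times for Fosl2, 2.71 for Fosl1, 2.74 for Jun, 3.10 for Fos, 4.20 for Junb and 17.7 for Fosb. Jund shares 543 bases of exon with the antisense gene Gm11175, which was listed at 0 to 15.6 TPM.

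**Figure D2:**
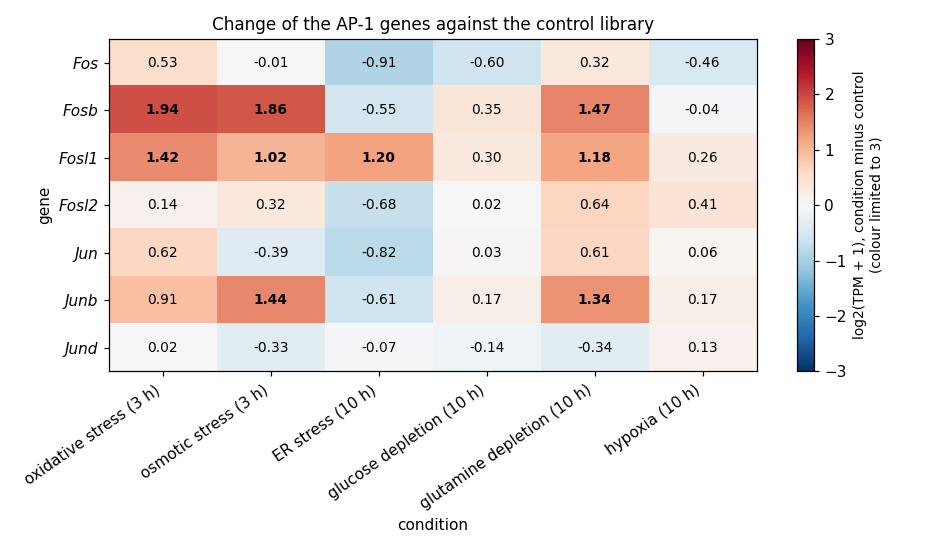
Change of each AP-1 gene (rows) in each condition (columns) as log2(TPM + 1) minus control, printed in each cell and shown by colour, with values past 2-fold in bold. Bold cells stand in the rows of Fosb, Fosl1 and Junb, and the ER stress column is below 0 for every gene but Fosl1.

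Counted by condition, oxidative stress had 2 of the 7 members up by more than 2-fold, where 3.94% of the kept genes rose and 4.85% fell. In osmotic stress 3 members rose, against 3.08% of the kept genes up and 8.76% down. Glutamine depletion also had 3 members up, against 3.21% up and 3.21% down. ER stress had 1 member up, where 8.6% of the kept genes rose and 11% fell. In glucose depletion (1.83% up, 2.41% down) and in hypoxia (3.57% up, 2.64% down) 0 members passed 2-fold. The 0 counts there and the 1 of 7 in ER stress are near the shares of all kept genes. In all, 9 of the 42 changes of a member in a condition were rises past 2-fold, 0 were falls and 33 were within 2-fold. These counts include Fosb, which passed the filter on low values through the libraries where it was high. With a pseudocount of 5 TPM the counts of members up were 1 in oxidative stress, 1 in osmotic stress and 2 in glutamine depletion. With Fosl1 summed with Ccdc85b, the counts of members up were 1 in oxidative stress, 2 in osmotic stress, 0 in ER stress and 2 in glutamine depletion. The changes closest to 2-fold were those of Fosl1 in osmotic stress (1.02), glutamine depletion (1.18) and ER stress (1.20) on one side, and of Fos in ER stress (-0.91), Junb in oxidative stress (0.91) and Jun in ER stress (-0.82) on the other.

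Including the smaller changes, 7 of 7 members were above control in oxidative stress, though Jund hardly differed from it (log2 change 0.02). In glutamine depletion 6 of 7 were above control, all but Jund. In ER stress 6 of 7 were below control, all but Fosl1. Jund was close to control there too (-0.07), and at 0 with the median of the libraries as reference. The other conditions were mixed, with 4 members above control in osmotic stress, where Fos was at -0.01, and 5 in each of glucose depletion and hypoxia. The median log2 change of the members was 0.62 in oxidative stress, 0.64 in glutamine depletion, 0.32 in osmotic stress, 0.13 in hypoxia, 0.03 in glucose depletion and -0.61 in ER stress. The median of the kept genes was -0.16, -0.09, -0.12, -0.05, -0.02 and 0 in the same order. How many of the kept genes lay on each side of their control level was not counted, so the counts by sign have no background.

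Set by time, both 3 h conditions had Fosb at or above 1.86 and all 10 h conditions had it at or below 1.47. For the other 6 members the ranges at 3 h and 10 h overlapped. The share of all kept genes with ranges apart was not taken, so the gap of Fosb cannot be called particular to it. Fosb also passed the filter on low values only through the libraries where it was high. Junb, for example, was at 0.91 and 1.44 in the 3 h conditions and between -0.61 and 1.34 in the 10 h conditions. Fos was at -0.01 and 0.53 at 3 h and between -0.91 and 0.32 at 10 h. The highest of the 10 h values was that of glutamine depletion for Fos, Fosb, Fosl2, Jun and Junb.

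The makeup of the AP-1 transcripts also differed between libraries. Summed over both families, with both Jund rows, the members held 341 TPM in control, 542 in oxidative stress, 501 in osmotic stress, 317 in ER stress, 577 in glutamine depletion, 354 in glucose depletion and 391 in hypoxia. The total was thus 1.59 times control in oxidative stress, 1.47 times in osmotic stress and 1.69 times in glutamine depletion, and between 0.927 and 1.14 times in the other 3 conditions. In control 5 members held most of it, from 14.5% for Fosl1 to 21.4% for Jund, and Fos and Fosb held 2.74% and 0.301%. With 1 of the 2 Jund rows Jund held 11.99%, the lowest of the 5, and Jun the most, 23.3%, while the leading member of each condition was as given next. Junb took the largest share in osmotic stress (36.7%) and glutamine depletion (29.6%), and Fosl1 in ER stress (36.2%) and oxidative stress (24.7%). In hypoxia Fosl2 held the largest share, 24.0%, and in glucose depletion Junb did, with 21.3%.

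The Fos family summed to 130 TPM and the Jun family to 211 TPM in control, a ratio of 0.616. The ratio was 0.748 in oxidative stress, 0.694 in osmotic stress, 0.709 in glutamine depletion, 0.653 in glucose depletion and 0.697 in hypoxia. ER stress was the library where the Fos family exceeded the Jun family, with 163 against 153 TPM and a ratio of 1.07, of which Fosl1 made up 115 TPM. With 1 of the 2 Jund rows the ratio was 1.38 in ER stress and 0.746 to 0.850 in the other libraries. Part of the Fosl1 level can be reads of Ccdc85b or the reverse, as described above.

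**Figure D3:**
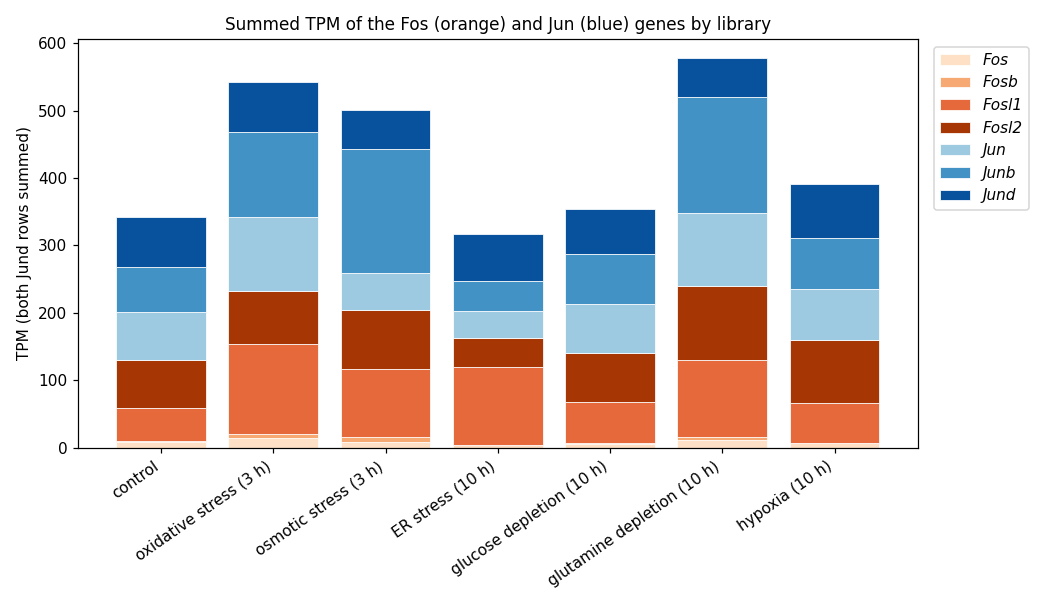
Summed TPM of the 7 AP-1 genes (vertical axis, from 0) in each library (horizontal axis), stacked by gene, with the Fos family in orange and the Jun family in blue and both Jund rows summed. The stacks of oxidative stress, osmotic stress and glutamine depletion reach 501 to 577 TPM, the others 317 to 391 TPM, and Fosl1 is the largest block in ER stress.

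Over the 7 libraries, Fosb and Junb had the most alike profiles of log2(TPM + 1) among the member pairs, with a Pearson r of 0.939. The next were Fos with Fosb (0.824), Fosl2 with Junb (0.795), Fos with Jun (0.782) and Fos with Junb (0.774). Fosl1 went with none of them as closely, its highest r being 0.566 with Fosb, and it was -0.06 with Fosl2. Jund went against Junb, with r = -0.64. These values describe levels in 7 single libraries, control among them, and carry no test. The genes most like each member were looked for among 3763 genes averaging 10 TPM or more and with a range of at least 1 log2 unit. For Fos these were Stk38l (r = 0.967), Gm24991 (0.958, listed at 0 in 3 libraries) and B4galt1 (0.952). For Fosb they were Sgms2 (0.954), Fhl2 (0.952) and Atxn1 (0.950), and Atxn1 also led for Junb (0.971), followed by Spp1 (0.964) and Nr1d1 (0.957). Fosl1 was closest to Tgif1 (0.982), a gene for a homeobox repressor that went from 61.1 TPM in control to 177 in oxidative stress, 157 in osmotic stress, 147 in ER stress and 138 in glutamine depletion, against 71.1 in glucose depletion and 73.1 in hypoxia. It was followed by Gm27626 (0.972, listed at 0 in control, glucose depletion and hypoxia) and Fbxo30 (0.947). The closest to Fosl2 were Fermt2 (0.983), Crabp2 (0.975) and Pappa (0.965), to Jun Spsb1 (0.976), B4galt5 (0.975) and Rap1gap2 (0.975), and to Jund Stat2 (0.944), Rpain (0.939) and Gm10985 (0.914, listed at 0 in osmotic stress and glutamine depletion).

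Among the other leucine zipper proteins that pair with Fos or Jun proteins, 4 of 7 listed genes were kept, and Batf, Batf2 and Batf3 were below the filter. Atf3, a stress-induced partner of Jun proteins, moved most. It stood at 3.02 TPM in control, 88.3 in oxidative stress, 13.2 in osmotic stress, 112 in ER stress, 21.3 in glutamine depletion, 3.14 in glucose depletion and 5.95 in hypoxia. It thus passed 2-fold in oxidative (log2 change 4.47), osmotic (1.82) and ER stress (4.81) and in glutamine depletion (2.47). Fosl1 passed 2-fold in the same 4 conditions, but its sum with the overlapping Ccdc85b did so in none. How many of all kept genes rose in the same 4 conditions was not counted. In ER stress the level of Atf3 came close to that of Fosl1 and was above those of Jun, Junb and Fosl2. Atf7 rose in hypoxia (1.07), and Atf2 and Jdp2 did not pass 2-fold, with Atf2 at 0.93 in ER stress. So 1 of the 4 kept genes was up in each of these conditions. Over all kept genes, 3.94% rose in oxidative stress, 3.08% in osmotic stress, 8.6% in ER stress, 3.21% in glutamine depletion and 3.57% in hypoxia.

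The MAP kinases, which switch on the early members, stayed within 2-fold of control at the transcript level. Of 10 listed genes 9 were kept, Mapk10 being below the filter, and 0 passed 2-fold in any condition. Over all kept genes, 1.83% to 8.6% rose and 2.41% to 11% fell by more than 2-fold, depending on the condition. By those shares few of 9 genes would pass. Their changes ran from -0.80 (Mapk12 in hypoxia) to 0.76 (Mapk8, which encodes the Jun kinase JNK1, in ER stress). The 10 listed SRF, ETS, CREB and MEF2 factors that act on the Fos and Jun promoters were all kept. Mef2c fell in ER stress (-2.03), and the others did not pass 2-fold. That 1 of 10 is near the 11% of all kept genes that fell in ER stress. Mef2a, a regulator of Jun, came nearest, at 1.00 (just under 2-fold) in glutamine depletion, 0.77 in osmotic and 0.74 in oxidative stress. Srf and the ETS factors Elk3 and Elk4 stood at 0.81, 0.78 and 0.68 in glutamine depletion, where the median of the list was 0.46.

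Of the 9 listed genes for mRNA decay and protein turnover, all kept, 3 passed 2-fold in some condition. They were 1 up in oxidative stress, 1 up in hypoxia and 1 down in ER stress. Over all kept genes 3.94% rose, 3.57% rose and 11% fell in these conditions, so the counts are close to what these shares give. Zfp36 (tristetraprolin), which binds ATTTA-rich 3′UTRs and speeds their decay, rose in oxidative stress (16.3 to 44.0 TPM, log2 change 1.38). It was at 33.4 TPM in glutamine depletion (0.99) and at 12.3 to 18.1 TPM in the other libraries. Oxidative stress and glutamine depletion were also the 2 highest libraries of Fos and Jun. Zfp36l1, a relative with the same activity, fell in ER stress (-1.04), and Fbxw7, a ubiquitin ligase subunit that marks Jun for degradation, rose in hypoxia (1.09).

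Of 12 known AP-1 target genes 9 were kept, Mmp9, Mmp10 and Il6 being below the filter. The counts up by more than 2-fold were 2 in oxidative stress, 2 in osmotic stress, 1 in ER stress and 3 in glutamine depletion, with 0 in glucose depletion and hypoxia. The counts down were 2 in ER stress and 1 in hypoxia. Over all kept genes the shares up were 3.94%, 3.08%, 8.6% and 3.21% in the first 4 of these conditions, and 11% were down in ER stress and 2.64% in hypoxia, so 1 of 9 up in ER stress was near the share of all genes. Ptgs2, which encodes the prostaglandin synthase COX-2, stood at 83.8 TPM in control, 489 in oxidative stress, 420 in osmotic stress, 159 in ER stress, 667 in glutamine depletion, 118 in glucose depletion and 105 in hypoxia. The 3 high libraries (log2 changes 2.53, 2.31 and 2.98) were also the 3 highest of Fosb and of Junb. Mmp13, a collagenase, rose in osmotic (1.67) and ER stress (1.79), from 2.31 TPM in control to 9.54 and 10.4 TPM. Plaur, the urokinase receptor, rose in oxidative stress (1.13) and glutamine depletion (1.40) and fell in hypoxia (-1.12). Plau, which encodes urokinase, rose in glutamine depletion (1.29) and fell in ER stress from 64.3 to 4.29 TPM (-3.63), and Vegfd, a lymphatic growth factor, fell there too (-1.99). The median of the list was 0.54 in oxidative stress, 0.60 in glutamine depletion, 0.41 in osmotic stress and -0.79 in ER stress, where the fibroblast markers had a median of -0.86, and their part in the fall of these genes was not tested.

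**Figure D4:**
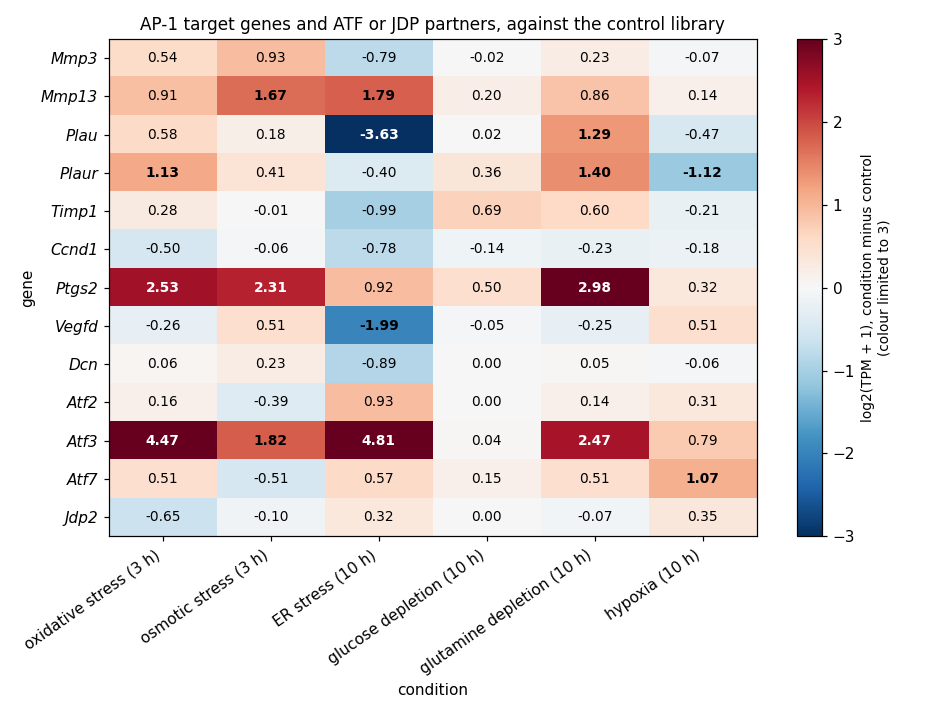
Change of the kept AP-1 target genes and of the kept ATF and JDP genes (rows) in each condition (columns) as log2(TPM + 1) minus control, printed in each cell, with values past 2-fold in bold and colour limited to 3. Atf3 is past 2-fold in 4 conditions and Ptgs2 in 3, and the glucose depletion column has no value past 2-fold.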

How the data were processed

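RNA-seq libraries of MEFs, stranded and paired-end per the labels, were quantified by the authors with Kallisto 0.43.1 at default settings against the GRCm38 cDNA of Ensembl release 90, and the deposited values are TPM added up by gene, with no read counts. Libraries were assigned to conditions by their treatment labels, 1 per condition.

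From the deposited TPM, log2(TPM + 1) of each condition minus control was computed. The pseudocount and the 2-fold rule follow the study's methods, and genes averaging 2 TPM or more were kept. The text names all 7 members, listed pathway genes past 2-fold in some condition or below the filter, and the 3 genes with the highest Pearson r to each member. Mef2a, Srf, Elk3, Elk4, Mapk8, Mapk12, Atf2, Jdp2 and Ccdc85b were named after their values were seen. Members and lists were chosen with earlier results of these data known. Gene locations, exon overlaps and 3′UTRs are from GENCODE M21, and promoters from RefSeq. ATTTA copies may overlap.

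Other settings tried were no filter and a minimum average of 10 TPM, a pseudocount of 0.1 or 5 TPM, centring, removal of mitochondrially encoded genes, the median library as reference, thresholds of 1.5-fold and 3-fold and, chosen after seeing the data, 1 Jund row and Fosl1 summed with Ccdc85b. The steps were also run on simulated libraries, as a check of the code only. The genes changed there were all well above the level of Fosb, so low genes and overlapping genes were not covered. Scripts ran in Python 3.11.15 with pandas 2.3.3, numpy 2.4.6 and matplotlib 3.10.9.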

Additional observations from a re-analysis of the deposited data

How the results depend on the processing

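No paired analysis was possible because each condition has 1 library. For the same reason no count above has an error, and the unknown depth limits what can be said of Fosb, the member at the lowest level. No median or family sum moved by more than 1.5 times. With the median of the libraries as reference the members' median was -0.07 in glucose depletion and 0 in osmotic stress and hypoxia, and under the other alternatives each median kept its sign. Some member counts did, and smaller moves of a count, such as from 3 to 2, are given with them. With a pseudocount of 0.1 TPM, 2 members (Fos and Fosb) were down in ER stress in place of 0. With 5 TPM, oxidative and osmotic stress each had 1 up and glutamine depletion had 2. A minimum average of 10 TPM removes Fos and Fosb, and left 1 up in oxidative stress, 2 in osmotic stress and 2 in glutamine depletion. Against the median of the libraries, 1 was up in oxidative stress, 0 in ER stress, 2 in osmotic stress and 2 in glutamine depletion, since Fosl1 has its lowest level in control. Fosl1 summed with Ccdc85b was an alternative chosen after seeing the data. It left 1 up in oxidative stress, 0 in ER stress, 2 in osmotic stress and 2 in glutamine depletion. At 1.5-fold, 4 were up in oxidative stress and 5 in glutamine depletion, and 4 were down in ER stress and 1 in glucose depletion, where 7.27%, 7.47%, 21.3% and 6.23% of the kept genes passed in that direction. At 3-fold, 1 was up in oxidative stress, 1 in osmotic stress, 0 in ER stress and 0 in glutamine depletion, against 2.3%, 1.65%, 3.39% and 1.61% of the kept genes. Centring made 3 members up in oxidative stress. Over the kept genes, centring moved the split in oxidative stress from 508 up and 626 down to 613 up and 413 down.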
